A study of Mus musculus with 10 samples.

Results

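Metallothioneins and zinc transporters were followed as 10 genes, listed by symbol, out of 18025 genes in the deposited tables. They are the metallothioneins Mt1 and Mt2, the zinc-sensing factor Mtf1, the exporters Slc30a1, Slc30a2 and Slc30a4, and the importers Slc39a1, Slc39a8, Slc39a10 and Slc39a14. All 10 had rows in both the count and the TPM table and all passed the filter on low counts. Their messenger RNA was measured in gastrocnemius, a fast-twitch calf muscle, from 5 samples of mice with chronic obstructive pulmonary disease (COPD), which the series title ascribes to cigarette smoke, and from 5 control samples. All samples came from wild type C57BL/6 mice, and the labels of both groups give the age as 8 weeks-old. The labels do not say what the controls were exposed to, how long the smoke was given, the sex of the mice or whether each sample came from a separate mouse. The p-values below therefore measure the spread between these samples, which may in part be technical.

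Metallothioneins are small, cysteine-rich proteins of the cytosol that bind zinc and copper and release them again. The transcription factor MTF1 senses free zinc and binds metal response elements (MREs) in the promoters of Mt1, Mt2 and Slc30a1. SLC30 (ZnT) proteins move zinc out of the cytosol, across the cell surface or into vesicles, and SLC39 (ZIP) proteins bring it in. Glucocorticoids and interleukin-6 also raise metallothionein transcription, and metallothionein messenger RNA is known to increase in wasting muscle.

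The promoters of the genes that MTF1 is best known to bind are shown because they carry the element that it recognises. The sequences are the 250 bases before the gene start in the RefSeq table of GRCm38.p6, all on the + strand, at chr8:94178839-94179088 for Mt1, chr8:94172368-94172617 for Mt2 and chr1:191906531-191906780 for Slc30a1. Capitals mark each MRE core, spelled TGCACNC or TGCGCNC and searched on both strands.
Mt1: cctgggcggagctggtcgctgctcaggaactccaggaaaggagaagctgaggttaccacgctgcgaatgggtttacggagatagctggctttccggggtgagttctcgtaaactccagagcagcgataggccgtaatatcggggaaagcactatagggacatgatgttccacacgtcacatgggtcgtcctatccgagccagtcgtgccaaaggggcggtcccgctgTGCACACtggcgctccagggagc
Mt2: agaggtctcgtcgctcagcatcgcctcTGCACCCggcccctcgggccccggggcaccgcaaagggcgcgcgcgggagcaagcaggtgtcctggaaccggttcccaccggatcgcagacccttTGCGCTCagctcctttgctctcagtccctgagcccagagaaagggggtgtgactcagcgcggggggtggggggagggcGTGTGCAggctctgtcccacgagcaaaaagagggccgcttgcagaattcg
Slc30a1: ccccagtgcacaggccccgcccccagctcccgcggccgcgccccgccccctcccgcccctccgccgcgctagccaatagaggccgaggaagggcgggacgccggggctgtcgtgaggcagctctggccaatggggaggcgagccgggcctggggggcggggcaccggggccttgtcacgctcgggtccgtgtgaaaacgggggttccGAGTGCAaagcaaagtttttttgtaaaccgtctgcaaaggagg

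The table held promoter windows of 300 bases, 250 before and 50 after the start, for 9 of the 10 genes, 11 windows in all. Slc39a14 had no window, so its motifs were not searched. Mt1 had 3 MRE cores in its window and Mt2 had 4. Slc30a4 had 3, Slc30a1 and Slc30a2 had 2 each, and 1 of the Slc39a8 windows had 1, so that 6 of the 9 genes had a core. Among all 32851 windows of the table, 25.7% held at least 1 core, 7.11% at least 2, 1.97% at least 3 and 0.517% at least 4. The windows of Mtf1, Slc39a1 and Slc39a10 held none. The cores were counted as spelled and are a description of these letters, not of binding. GENCODE M21 also lists transcripts of Mt1 that start 122 and 152 bases after the RefSeq start, and of Mt2 that start 46 and 242 bases after it, so the bases before those starts lie partly outside the windows. The antioxidant-type motif TGACNNNGC was found in the windows of Mt2, Slc30a1 and Slc39a1 and in 1 window of Slc39a8, and in 12.4% of all windows. The STAT-type motif TTCNNNGAA, which reads the same on both strands, was found in 1 window of Slc39a10 and in 8.30% of all windows.

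The libraries held 14085854 to 17163590 counts in COPD and 15637218 to 17251034 in control. All 8 markers of fast fibres, such as Acta1 and Ckm, were detected, and their summed level was 197131 to 229064 TPM in COPD and 149755 to 234629 TPM in control. Transcripts of Y-linked genes split the COPD libraries. The summed counts of Ddx3y, Eif2s3y and Kdm5d were 4, 3 and 3 in COPD replicates 1, 4 and 5, and 1118 and 1258 in COPD replicates 2 and 3. They were 1441 to 1974 in the 5 control libraries. Any difference that goes with this split cannot be told apart from a difference among the COPD samples themselves, because no control library lacked these transcripts. COPD replicate 5 also had the highest summed red-cell markers of the 10 libraries, at 4070 TPM.

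None of the 10 genes passed the test between COPD and control, which was edgeR's quasi-likelihood test with a Benjamini-Hochberg adjusted p below 0.05. Of the 12697 genes tested, 0.063% passed, 0.0551% higher and 0.00788% lower in COPD. At an unadjusted p below 0.05, 3 of the 10 were higher in COPD (Mt1, Mt2 and Slc39a14), where 7.94% of all tested genes were, and 0 were lower, where 6.64% of all tested genes were. The members were chosen with earlier results of these data known, and Mt1 and Mt2 moved together (r 0.986). Setting these counts beside the shares is therefore a description and not a test. DESeq2 likewise called 0 of the 10, where it called 3.19% of all tested genes. Without COPD replicate 5, edgeR called 0 of the 10 and 3.21% of all tested genes. The COPD and control libraries overlapped for all 10 genes, while they did not overlap for 2.84% of all tested genes. The log2 fold change, COPD over control, was above 0 for 6 members and below 0 for 4, with a median of 0.18 against -0.01 over all genes tested. Levels are given in TPM (reads per length of transcript, as a share of the library), and fold changes come from counts scaled by the trimmed mean of M-values (TMM). These scales differ, so that the fold change of a gene need not equal the ratio of its mean TPM.

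Mt1 and Mt2, the metallothioneins found in most tissues, were the most abundant of the 10 genes in both groups and varied most in absolute level. Mt1 was at 980, 716, 396, 1375 and 607 TPM in COPD replicates 1 to 5, and at 276, 704, 328, 871 and 264 TPM in control replicates 1 to 5. In TPM, COPD replicates 4 and 1 were above every control, and the other COPD libraries lay within the control range. COPD replicate 2 (247 CPM) was also above the highest control (241 CPM) in TMM-scaled CPM, which are counts scaled to library size. The mean was 815 ± 377 TPM in COPD and 489 ± 280 TPM in control (SD, n = 5 each). The log2 fold change was 0.96 ± 0.39 (SE), with an adjusted p of 0.287 by edgeR's quasi-likelihood test. For Mt2 the values were 518, 312, 170, 783 and 341 TPM in COPD replicates 1 to 5 and 97.5, 344, 122, 319 and 101 TPM in control replicates 1 to 5. In TPM the same COPD libraries, 4 and 1, were above all controls, and 3 controls were below every COPD library. In TMM-scaled CPM, COPD replicates 2 and 5 (110 and 107 CPM) were also above the highest control (96.9 CPM). Mt2 averaged 425 ± 236 TPM in COPD and 196 ± 124 TPM in control, a log2 fold change of 1.33 ± 0.45, with an adjusted p of 0.216 by edgeR's quasi-likelihood test.

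**Figure D1:**
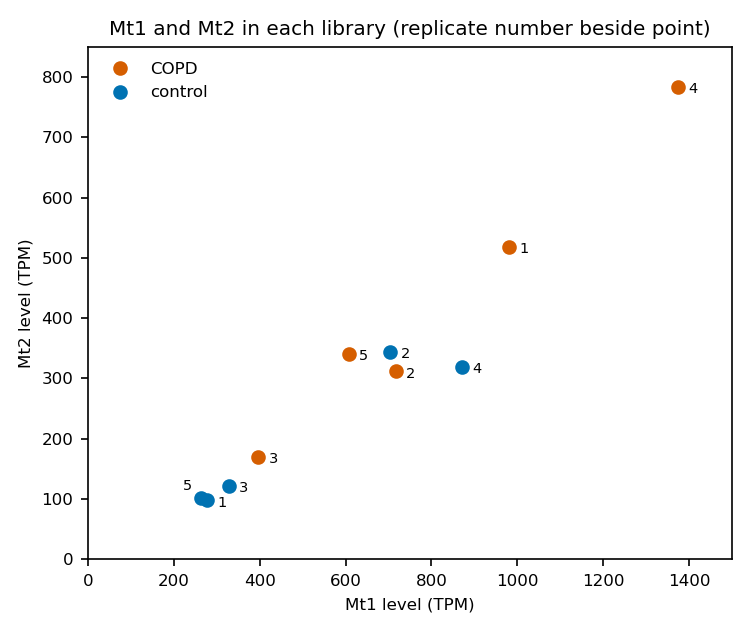
Mt2 level (vertical axis, TPM) against Mt1 level (horizontal axis, TPM) in each of the 10 libraries, with orange points for COPD, blue points for control and the replicate number beside each point. The libraries lie close to 1 line, with COPD replicates 4 and 1 at the top and control replicates 5, 1 and 3 at the bottom.

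The metallothionein pair moved together from library to library. Pearson's r of their log2 CPM (counts scaled to library size) was 0.986 and Spearman's rho 0.952 over the 10 libraries, and r was 0.970 over 8 libraries without control replicates 5 and 1, the farthest from the Mt1 median. With the group means taken out, r was 0.981. These coefficients are a description: both genes were read from the same libraries and share their depth and composition. The GENCODE transcripts of the pair share no exact run longer than 20 bases. The summed Mt1 and Mt2 level was 566 to 2158 TPM in COPD, with a median of 1028 TPM, and 365 to 1190 TPM in control, with a median of 449 TPM. By TPM rank, Mt1 stood between place 82 and place 280 of all genes in the COPD libraries and between place 165 and place 438 in the control libraries.

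Mt2 made up a larger share of the pair in most COPD libraries. Relative to Mt1, the Mt2 level was 52.8%, 43.5%, 43.0%, 57.0% and 56.1% in COPD replicates 1 to 5, and 35.3%, 48.8%, 37.1%, 36.6% and 38.1% in control replicates 1 to 5. Control replicate 2 was the 1 control within the COPD range. The mean was 50.5 ± 6.78% in COPD and 39.2 ± 5.49% in control, given here with no test. Mt3, the metallothionein best known from brain, was at 4.81 ± 2.28 TPM in COPD and 3.54 ± 0.920 TPM in control, with an adjusted p of 0.474 by edgeR's quasi-likelihood test.

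Mtf1, which encodes the zinc-sensing activator of the metallothionein genes, was level across the libraries. It was at 3.68, 4.86, 5.00, 4.44 and 4.97 TPM in COPD replicates 1 to 5 and at 4.66, 5.24, 4.38, 4.62 and 4.44 TPM in control replicates 1 to 5. The groups overlapped. In TMM-scaled CPM, COPD replicates 2, 3 and 5 (25.6, 24.6 and 23.4 CPM) were above the highest control (22.1 CPM). The log2 fold change was 0.18 ± 0.10, with an adjusted p of 0.449 by edgeR's quasi-likelihood test. Its log2 fold change was -0.02 with limma on log2(TPM + 1) and -0.03 on log2(TPM + 0.1). It was above 0 with each scaling of the counts, at 0.02 with library size alone. Mtf1 exons overlap those of 1110065P20Rik on the opposite strand in GENCODE M21, and reads of both genes cannot be told apart if the counting did not use strand. That neighbour was at 25.1 to 39.8 TPM in COPD and 28.3 to 54.8 TPM in control. Mt2, Slc30a1 and Slc30a4 also overlap genes on the opposite strand (Gm45774, 1700034H15Rik and 4930417H01Rik), for which no levels were given.

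**Figure D2:**
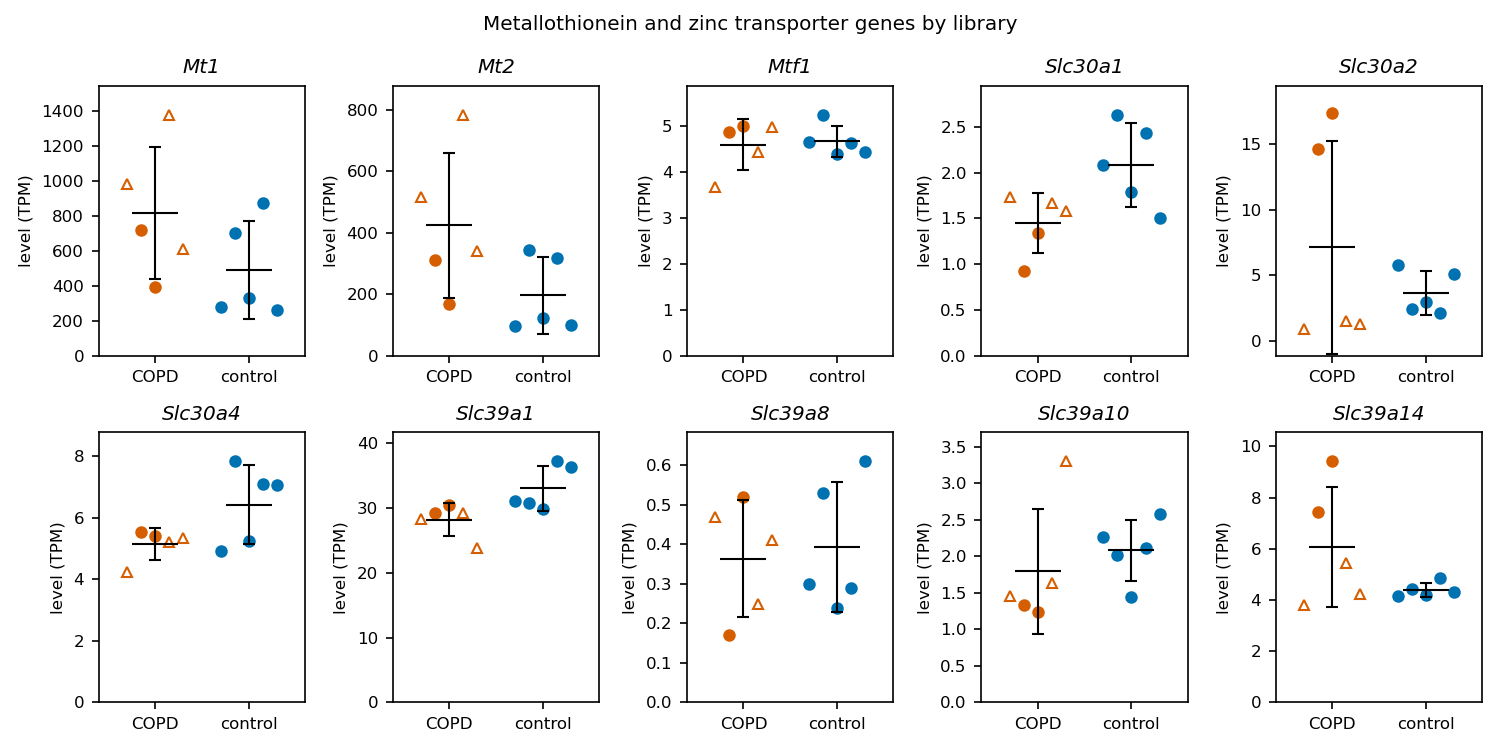
Level of each of the 10 genes (vertical axes, TPM, a scale of its own in each panel) in the COPD libraries (orange, left) and the control libraries (blue, right). Filled circles are libraries with Y-linked transcripts, open triangles are libraries without them, and the black lines give the mean ± SD (n = 5 each). For Mt1, Mt2, Mtf1, Slc30a2, Slc39a10 and Slc39a14 the COPD libraries spread more widely in TPM than the control libraries.

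Among the exporters, Slc30a1 had the lowest log2 fold change and Slc30a2 the highest. Slc30a1 encodes ZnT1, the exporter at the cell surface, which MTF1 is known to activate. It was at 1.73, 0.93, 1.34, 1.67 and 1.58 TPM in COPD replicates 1 to 5 and at 2.08, 2.63, 1.79, 2.43 and 1.5 TPM in control replicates 1 to 5. In TPM, all COPD libraries lay below the control libraries except control replicate 5, and COPD replicates 2 and 3 lay below that one too. This order did not hold in TMM-scaled CPM. There COPD replicate 1 (6.35 CPM) was above control replicates 1 and 3 (6.04 and 5.98 CPM), and COPD replicate 3 was above control replicate 5. The log2 fold change was -0.32 ± 0.20, with an adjusted p of 0.493 by edgeR's quasi-likelihood test. Its point estimate was thus on the other side of 0 from those of Mt1 and Mt2, which MTF1 is also known to activate.

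Slc30a2 encodes ZnT2, which loads zinc into vesicles and is known from the secretory cells of the breast and pancreas. It was at 0.92, 14.6, 17.4, 1.52 and 1.25 TPM in COPD replicates 1 to 5 and at 5.81, 2.40, 2.93, 2.11 and 5.10 TPM in control replicates 1 to 5. COPD replicates 2 and 3 were above every control library, and the other COPD libraries were below every control library. The underlying counts were 420 and 471 in COPD replicates 2 and 3, 27 to 43 in the other COPD libraries and 65 to 177 in the control libraries. The mean of 7.14 ± 8.15 TPM in COPD, against 3.67 ± 1.67 TPM in control, therefore describes neither set of COPD libraries. The log2 fold change over all 10 libraries was 1.19 ± 0.75, with an adjusted p of 0.506 by edgeR's quasi-likelihood test. It was 0.17 with limma on log2(TPM + 1) and 0.31 with a replicate block.

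Slc30a4 encodes ZnT4, another exporter of vesicles and endosomes. It was at 4.23 to 5.52 TPM in COPD, with a median of 5.35 TPM, and at 4.90 to 7.82 TPM in control, with a median of 7.05 TPM. The groups overlapped, and the log2 fold change was -0.12 ± 0.13, with an adjusted p of 0.729 by edgeR's quasi-likelihood test.

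Of the importers among the members, Slc39a14 had the highest log2 fold change. It encodes ZIP14, which carries zinc, non-transferrin iron and manganese across the cell surface and is known to increase in liver and in wasting muscle under inflammatory signals. It was at 3.80, 7.45, 9.41, 5.46 and 4.22 TPM in COPD replicates 1 to 5 and at 4.15, 4.42, 4.21, 4.85 and 4.31 TPM in control replicates 1 to 5. In TPM, COPD replicates 2, 3 and 4 were above every control, COPD replicate 5 was among the controls and COPD replicate 1 was below them. In TMM-scaled CPM, COPD replicate 5 (12.7 CPM) was also above every control. COPD replicate 1 (12.5 CPM) was within the control range of 11.3 to 12.6 CPM. The mean was 6.07 ± 2.35 TPM in COPD and 4.39 ± 0.278 TPM in control, so that the COPD libraries spread more widely. The log2 fold change was 0.67 ± 0.22, with an adjusted p of 0.213 by edgeR's quasi-likelihood test.

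Slc39a1 encodes ZIP1, a widely expressed importer of the cell surface, and was the most abundant transporter among the members. It was at 28.3, 29.2, 30.4, 29.2 and 23.9 TPM in COPD replicates 1 to 5 and at 31.1, 30.9, 29.8, 37.2 and 36.3 TPM in control replicates 1 to 5. Only COPD replicate 3 lay within the control range on this scale. On the TMM-scaled counts the log2 fold change was -0.02 ± 0.11, with an adjusted p of 0.955 by edgeR's quasi-likelihood test. TMM factors averaged 0.948 ± 0.0196 in COPD and 1.06 ± 0.0619 in control, and the median log2 fold change of all genes was -0.01 with TMM, against -0.18 on the log2(TPM + 1) scale.

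Slc39a10, which encodes ZIP10, was at 1.46, 1.33, 1.24, 1.64 and 3.30 TPM in COPD replicates 1 to 5 and at 2.27, 2.02, 1.44, 2.12 and 2.58 TPM in control replicates 1 to 5. COPD replicate 5 was the highest of all libraries, while COPD replicates 2 and 3 lay below every control. Its log2 fold change was -0.01 ± 0.24, with an adjusted p of 0.994 by edgeR's quasi-likelihood test, and it took either sign depending on the library left out. Slc39a8 encodes ZIP8, a relative of ZIP14 that also carries manganese and cadmium. It was the least abundant of the 10 genes, with 7 to 19 counts a library, at 0.17 to 0.52 TPM in COPD and 0.24 to 0.61 TPM in control. Its log2 fold change was 0.19 ± 0.33, with an adjusted p of 0.842 by edgeR's quasi-likelihood test.

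The order of mean TPM was alike at the top and the bottom in both groups. In COPD it ran Mt1, Mt2, Slc39a1, Slc30a2, Slc39a14, Slc30a4, Mtf1, Slc39a10, Slc30a1 and Slc39a8, and in control Mt1, Mt2, Slc39a1, Slc30a4, Mtf1, Slc39a14, Slc30a2, Slc30a1, Slc39a10 and Slc39a8. In COPD, neighbours whose ranges did not overlap were Mt2 and Slc39a1, Slc39a1 and Slc30a2, Mtf1 and Slc39a10, and Slc30a1 and Slc39a8. In control they were Mt2 and Slc39a1, Slc39a1 and Slc30a4, and Slc39a10 and Slc39a8. All other neighbours overlapped, and Slc30a1 and Slc39a10 had the same control mean.

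**Figure D3:**
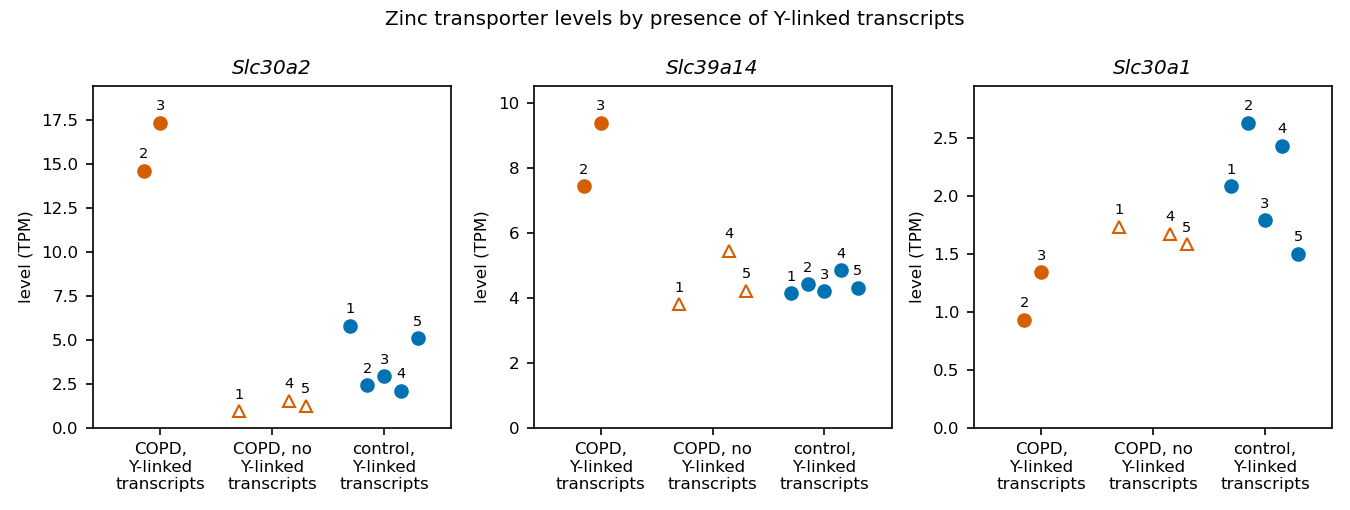
Levels of Slc30a2, Slc39a14 and Slc30a1 (vertical axes, TPM) in COPD libraries with Y-linked transcripts (filled orange circles), COPD libraries without them (open orange triangles) and control libraries (filled blue circles), with replicate numbers above the points. COPD replicates 2 and 3 are above all other libraries for Slc30a2 and Slc39a14 and, in TPM, below them for Slc30a1.

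The split by Y-linked transcripts separated the COPD libraries most clearly for Slc30a2 and Slc39a14. In the 2 COPD libraries with Y-linked transcripts, set against the 5 controls, Slc30a2 and Slc39a14 rose, and these 2 of the 10 genes passed where 3.7% of 13195 tested genes passed. The Slc30a2 log2 fold change was 2.37 ± 0.32 (n = 2 and 5), with an adjusted p of 0.00612 by edgeR's quasi-likelihood test. For Slc39a14 it was 1.19 ± 0.11, with an adjusted p of 0.00144 by the same edgeR test. With a term for Y-linked transcripts in the fit of all 10 libraries, 1.7% of 12697 genes passed, and the values were 2.36 ± 0.31 for Slc30a2 (edgeR adjusted p = 0.00713) and 1.18 ± 0.13 for Slc39a14 (edgeR adjusted p = 0.00322). In both fits COPD replicates 2 and 3 alone set the COPD value. For Slc30a4, Slc39a1 and Slc39a8 the log2 fold changes over control were 0.00909 ± 0.18, 0.0929 ± 0.12 and 0.18 ± 0.49 in COPD libraries with Y-linked transcripts, and -0.19 ± 0.15, -0.0855 ± 0.13 and 0.21 ± 0.40 in those without them. In the same order, Slc39a10 was at -0.44 ± 0.21 and 0.22 ± 0.25, and Mtf1 at 0.32 ± 0.12 and 0.0887 ± 0.12.

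In the 3 COPD libraries without Y-linked transcripts, neither gene passed against the controls, where 0.054% of 12973 genes passed. Slc30a2 was at 0.92 to 1.52 TPM in these COPD libraries, below the control range of 2.11 to 5.81 TPM, with a log2 fold change of -1.38 ± 0.36 and an edgeR adjusted p of 0.307. Slc39a14 was at 3.80 to 5.46 TPM, around the control range of 4.15 to 4.85 TPM. In TMM-scaled CPM it was at 12.5 to 15.8 in these COPD libraries and at 11.3 to 12.6 in control. Its log2 fold change was 0.19 ± 0.13, with an edgeR adjusted p of 0.692. The 2 sets of COPD libraries thus lay on opposite sides of the controls for Slc30a2.

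The point estimates of the metallothioneins were in the other order, but single libraries of the 2 sets overlapped. Mt1 was at 716 TPM in COPD replicate 2, which had Y-linked transcripts, and at 607 TPM in COPD replicate 5, which lacked them. For Mt2 these libraries were at 312 and 341 TPM, but at 110 and 107 in TMM-scaled CPM. In COPD libraries with Y-linked transcripts the log2 fold change over control was 0.46 ± 0.48 for Mt1 and 0.56 ± 0.52 for Mt2 (edgeR adjusted p = 0.640 and 0.591). In those without them it was 1.22 ± 0.41 for Mt1 and 1.68 ± 0.44 for Mt2 (edgeR adjusted p = 0.416 and 0.312). None of these 4 values passed the test, and the difference between the sets was not tested. Slc30a1 was at 0.93 to 1.34 TPM in COPD libraries with Y-linked transcripts and at 1.58 to 1.73 TPM in COPD libraries without them. Their log2 fold changes over control were -0.65 ± 0.25 and -0.13 ± 0.20. The COPD libraries with Y-linked transcripts were below all other libraries in TPM. On the TMM-scaled CPM, COPD replicate 3 was above control replicate 5.

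**Figure D4:**
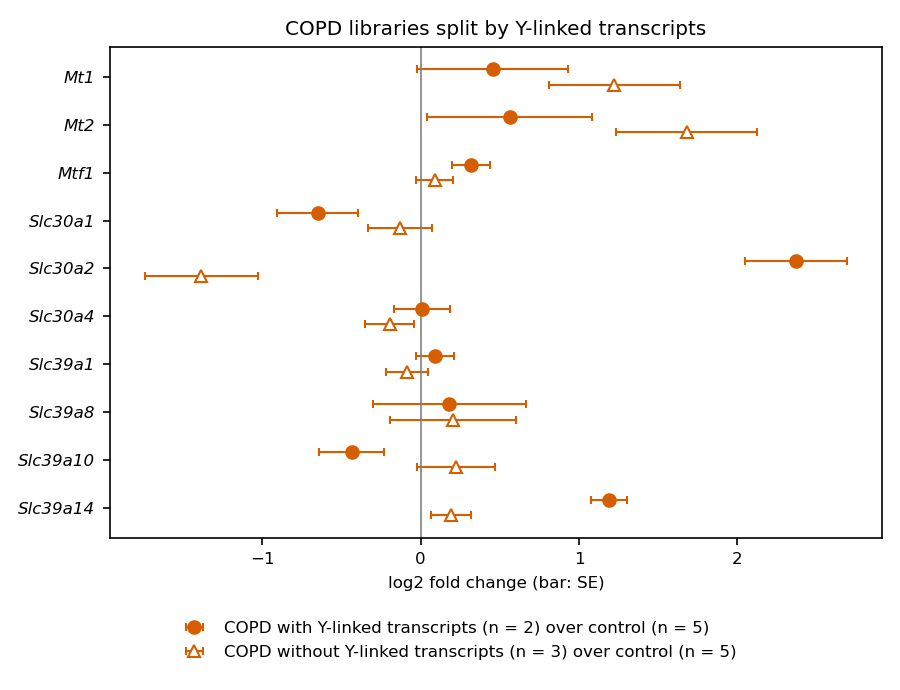
Log2 fold change over the 5 control libraries (horizontal axis, bars are SE) of the 10 genes in the 2 COPD libraries with Y-linked transcripts (filled circles) and the 3 without them (open triangles). The sets lie on opposite sides of 0 for Slc30a2, at 2.37 and -1.38, and far apart for Slc39a14, at 1.19 and 0.19. They also lie on opposite sides of 0 for Slc39a10, at -0.44 and 0.22, Slc39a1, at 0.0929 and -0.0855, and Slc30a4, at 0.00909 and -0.19.

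The summed macrophage and endothelial markers were lowest in the COPD libraries with Y-linked transcripts, and other cell types did not all share this. The sum of the 8 macrophage markers was 42.1 and 55.7 TPM in the COPD libraries with Y-linked transcripts, 80.6 to 138 TPM in the COPD libraries without them and 104 to 183 TPM in control. All 8 markers had a log2 fold change below 0 over the 10 libraries, 4 of them with an unadjusted p below 0.05, and none was at 0 in all libraries. The sum of the 8 endothelial markers was 179 and 193 TPM in the COPD libraries with Y-linked transcripts, 197 to 300.2 TPM in those without them and 203 to 316 TPM in control. Of these markers, 6 had a log2 fold change below 0 over the 10 libraries and 2 above. The 1 with an unadjusted p below 0.05 was Esam, higher in COPD (0.42 ± 0.18). The sum of the 7 adipocyte markers was 460.0 and 494 TPM in the COPD libraries with Y-linked transcripts, 468 to 814 TPM in those without them and 531 to 676 TPM in control. Of 5 adipocyte markers tested, 4 had a log2 fold change above 0 and 1 below. The sum of the 8 fibroblast and tendon markers was 205 and 377 TPM in the COPD libraries with Y-linked transcripts. It was 294 to 362 TPM in those without them and 327 to 342 TPM in control. The part of these cell types in the Slc30a2 and Slc39a14 values was not tested. In whole muscle, fewer cells of a type and less RNA per cell cannot be told apart.

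Likeness between genes was measured as Pearson's r of log2 CPM over the 10 libraries with group means taken out, among 9052 genes with a mean of at least 5 CPM. After Mt1 (r 0.981), the genes most like Mt2 were Mboat7 (0.925), Siah1a (0.917), Ipo13 (0.898) and Nr1h3 (0.895). Among the other members, Slc30a1 came nearest to Mt2, at r 0.668, and Slc30a2 was farthest, at r -0.683. The genes most like Slc39a14 were C7 (0.972), Prkcd (0.958), Ddx3y (0.958), Eif2s3y (0.954) and Evc2 (0.953), of which Ddx3y and Eif2s3y are the Y-linked genes that define the split. Slc30a2 stood at place 16 in that ranking, with r 0.909. These coefficients rest on the step between COPD libraries: C7, a complement component, was at 9.27 and 9.28 TPM in COPD replicates 2 and 3, at 0.51 to 1.41 TPM in the other COPD libraries and at 2.71 to 3.50 TPM in control. Prkcd, a protein kinase C, was at 17.4 and 21.5 TPM in COPD replicates 2 and 3, at 4.15 to 7.24 TPM in the other COPD libraries and at 3.91 to 5.66 TPM in control.

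None of the other family genes passed the test. Of 18 further metallothionein, ZnT and ZIP genes in the tables, 12 were tested and 0 passed with edgeR, 0 had an unadjusted p below 0.05, and their log2 fold changes ran from -0.06 to 0.63. The 6 untested genes reached at most 0.26 TPM in any library. The most abundant was Slc39a7, which encodes ZIP7, the importer that releases zinc from the endoplasmic reticulum. It was at 40.0 ± 2.59 TPM in COPD and 47.1 ± 4.35 TPM in control, with a log2 fold change of -0.03 ± 0.09 and an edgeR adjusted p of 0.921. Slc30a9 was at 30.6 ± 4.70 TPM in COPD and 34.7 ± 3.43 TPM in control, with a log2 fold change of 0.02 ± 0.10. Slc39a13, which encodes ZIP13 of the secretory pathway, was at 30.7 ± 0.650 TPM in COPD and 33.1 ± 2.71 TPM in control, with a log2 fold change of 0.08 ± 0.08. The signs of Slc30a9 and Slc39a13 turn below 0 with scaling by library size alone.

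**Figure D5:**
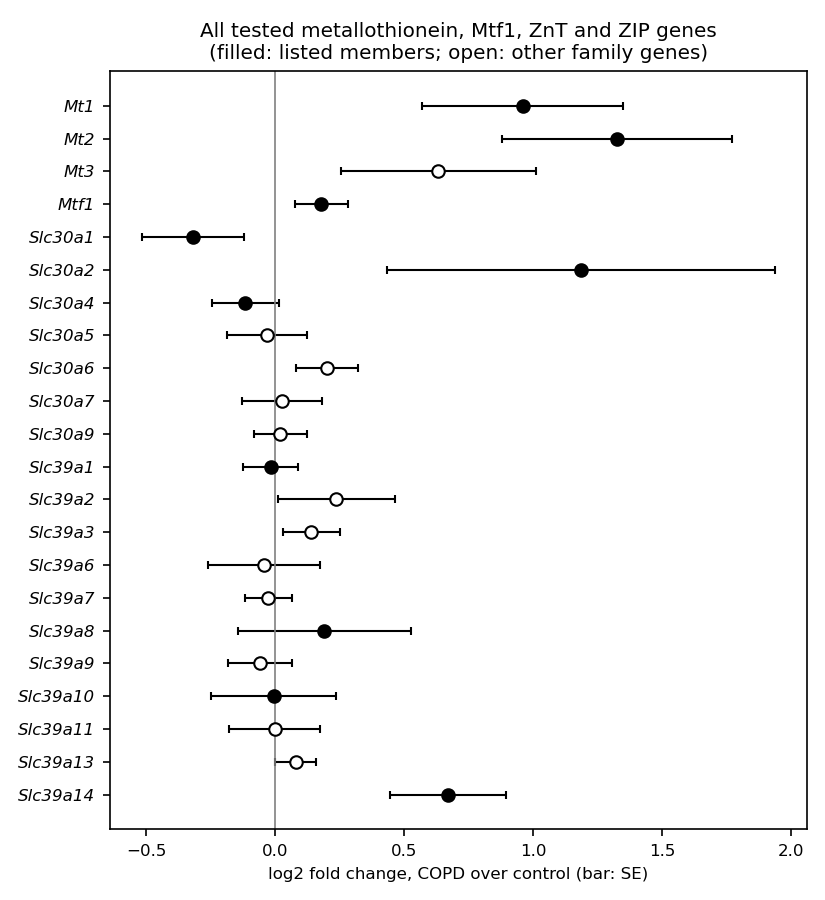
Log2 fold change, COPD over control (horizontal axis, bars are SE, n = 5 each), of every tested metallothionein, Mtf1, ZnT and ZIP gene, with filled circles for the 10 members and open circles for the other family genes. Mt2, Slc30a2, Mt1 and Slc39a14 have the highest values, at 1.33, 1.19, 0.96 and 0.67, and the other family genes lie between -0.06 and 0.63.

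Genes linked to the same regulators were read from lists of known targets, and no gene of these lists passed edgeR's test of COPD against control in the 10 libraries without a further term. With a term for Y-linked transcripts, 5 of those named below passed (Arrdc2, Ddit4, Tsc22d3, Junb and Pim1). In the libraries with Y-linked transcripts alone, Tfrc, Slc11a2 and Cebpb passed as well. Of 6 other MTF1 targets tested, 0 had an unadjusted p below 0.05, and the median log2 fold change was -0.06. They include Gclc, which makes glutathione (0.33 ± 0.25), Selenow, a selenoprotein abundant in muscle (0.15 ± 0.12), the iron exporter Slc40a1 (-0.18 ± 0.25) and Ndrg1 (-0.08 ± 0.17). Copper genes were included because metallothioneins also bind copper, and 3 of 12 tested were higher and 0 lower in COPD at an unadjusted p below 0.05. The smallest p-values in this list were those of Commd1 (0.39 ± 0.11), Sco2 (0.60 ± 0.25), Cox17 (0.31 ± 0.13) and Sod1 (-0.32 ± 0.20).

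Iron and manganese genes were read because ZIP14 and ZIP8 carry both metals. Of 14 tested, 3 were higher and 0 lower in COPD at an unadjusted p below 0.05, with a median log2 fold change of 0.07. Tfrc, the transferrin receptor that takes up iron, was at 21.2, 36.5, 27.8, 71.8 and 43.6 TPM in COPD replicates 1 to 5 and at 27.6, 21.8, 16.7, 20.4 and 16.3 TPM in control replicates 1 to 5. Of the COPD libraries, replicate 1 alone lay within the control range, and the log2 fold change was 1.16 ± 0.26 with an edgeR adjusted p of 0.0968. Slc11a2, an iron importer, was at 0.43 ± 0.13, Slc25a37, the mitochondrial iron importer, at 0.26 ± 0.11 and Hmox1, the haem-degrading enzyme, at 0.42 ± 0.23 in log2 fold change.

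Glucocorticoid-responsive genes, which share an inducer with the metallothioneins, had 11 of 22 tested genes higher and 1 lower in COPD at an unadjusted p below 0.05, with a median log2 fold change of 0.66. The smallest p-values were those of Arrdc2 (1.34 ± 0.26), Ddit4 (3.01 ± 0.62), Dusp1 (0.88 ± 0.19) and Tsc22d3 (0.98 ± 0.21), with edgeR adjusted p-values of 0.0712 to 0.0884. Genes of the interleukin-6 and STAT3 response had 5 of 14 higher and 1 lower, with a median of -0.12, and those of smallest p were Cebpb (1.30 ± 0.26), Junb (2.39 ± 0.50), Fos (1.88 ± 0.55) and Pim1 (0.90 ± 0.27). NRF2 targets had 1 of 13 higher and 1 lower, with a median of -0.06, among them Taldo1 (0.28 ± 0.09), Srxn1 (-0.55 ± 0.25), G6pdx (-0.38 ± 0.24) and Hmox1. Some genes stand in more than 1 list. The shares over all tested genes at that p were 7.94% higher and 6.64% lower. The lists were chosen with earlier results of these data known, so setting their counts beside these shares is a description and not a test.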

How the data were processed

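Gastrocnemius messenger RNA was sequenced in 5 COPD and 5 control samples, grouped by their titles. The authors deposited expected counts per gene, of which 30.7% were not whole, and TPM for the same 18025 genes. Per the submitters' processing notes, RSEM 1.2.12, Bowtie2 2.2.5, HISAT2 2.0.4, DESeq2 1.4.5 and the build mm9 were used, with no roles stated. The use of strand in counting is not stated in those sources.

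Expected counts were rounded and fitted with edgeR 4.0.16 (filterByExpr, TMM, quasi-likelihood test on the group) in R 4.3.3, over 12697 genes, with Benjamini-Hochberg adjustment at 0.05. The SE is the log2 fold change divided by the square root of its F value. The pipeline was tested on simulated data. Log2 CPM used a prior count of 2. Alternatives used DESeq2 1.42.0, limma 3.58.1 on the deposited TPM with pseudocounts of 1 and 0.1 (mean TPM of at least 0.5), other scalings, no filter, a replicate block, a term for Y-linked transcripts (at least 1 CPM), the libraries with them alone, and each library left out. Setting the COPD libraries without Y-linked transcripts against the controls was chosen after seeing the data. The counts of all pairs of libraries differed by more than sampling noise. The SEs cover these samples only.

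Named genes were all 10 members, the other family genes with an unadjusted p under 0.05 or the 3 highest in TPM, the 4 smallest p-values of each list, and the 5 genes most like Mt2 and Slc39a14. C7, Prkcd and Tfrc were given by library after their values were seen. The members and lists were chosen with earlier results of these data known. Promoters are from RefSeq, GRCm38.p6. The files' own build is mm9, so they were matched by symbol only.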

Additional observations from a re-analysis of the deposited data

Results flagged for a closer look

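Slc39a10 was at 10.3 CPM in COPD replicate 5, apart from the other 4 COPD libraries, with a gap to the nearest of them of 0.822 of the group's range. Among 20 groups of 5 libraries searched, it was the 1 value with a gap beyond 0.71 of the range, Dixon's critical value for 5 samples. Chance sets about 1 group in 20 apart by more than 0.71. COPD replicate 5 also had the highest summed red-cell markers, at 4070 TPM, and adipocyte markers, at 814 TPM; their part in the Slc39a10 value was not tested.

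Slc30a2 lay on opposite sides of the controls in the 2 sets of COPD libraries, with a log2 fold change of 2.37 in those with Y-linked transcripts and -1.38 in those without them. The difference between these sets was not tested.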

How the results depend on the processing

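None of the 10 genes passed the test in any scaling, filter, DESeq2, replicate-block or leave-one-out alternative, none of the 9 fitted with limma did (Slc39a8 fell under its TPM minimum), and none in the COPD libraries without Y-linked transcripts set against the controls; 2 passed, Slc30a2 and Slc39a14, with a term for Y-linked transcripts and in the libraries with them alone. Over these settings the Mt1 log2 fold change was 0.45 to 1.26 that of Mt2 0.55 to 1.68, that of Slc30a2 -1.38 to 2.37 and that of Slc39a14 0.19 to 1.19. Slc30a2 was at 0.17 and 0.0314 with limma at pseudocounts of 1 and 0.1 and at 0.31 with the replicate block, and Slc39a14 was at 0.33 and 0.38 with limma. Leaving out each library in turn, Mt1 was at 0.73 to 1.26 (adjusted p 0.172 to 0.458), Mt2 at 1.02 to 1.61 (0.129 to 0.349), Slc30a2 at 0.59 to 1.47 (0.269 to 0.823) and Slc39a14 at 0.48 to 0.79 (0.0705 to 0.398). Slc39a8 had 7 to 19 counts a library; how depth bears on its value was not tested.

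The number of all genes called, 8 in the 10 libraries with 7 higher and 1 lower, was 17 (14 higher, 3 lower) with no filter, 405 (256 and 149) with DESeq2, 76 (67 lower) with limma on log2(TPM + 1) and 3 (0 higher, 3 lower) with limma on log2(TPM + 0.1). It was 216 (165 and 51) with the term for Y-linked transcripts and 488 (336 and 152) in the libraries with them alone. Library size alone gave 2 higher and 4 lower, upper-quartile scaling 3 lower, and the COPD libraries without Y-linked transcripts 1 higher and 6 lower. Leaving out 1 library gave 0 to 410 called, 0 to 263 higher and 0 to 147 lower, with 410 without COPD replicate 5 and 0 without COPD replicate 2. Without COPD replicate 5, 8 of the 45 named genes passed that otherwise did not (Commd1, Arrdc2, Ddit4, Dusp1, Tsc22d3, Cebpb, Junb and Prkcd), with adjusted p-values of 0.000694 to 0.0449. DESeq2 passed 10 (Commd1, Tfrc, Arrdc2, Ddit4, Dusp1, Tsc22d3, Cebpb, Junb, Pim1 and Prkcd, adjusted p 0.00012 to 0.0424). The term for Y-linked transcripts passed 9 (Slc30a2, Slc39a14, Arrdc2, Ddit4, Tsc22d3, Junb, Pim1, C7 and Prkcd, 0.000996 to 0.0404), and the libraries with them alone passed these and Tfrc, Slc11a2 and Cebpb (0.000318 to 0.0467).

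The median of all genes shifted to -0.17 with library size alone, -0.18 with log2(TPM + 1) and -0.21 with log2(TPM + 0.1), and the following signs turned; C7 moved further than this shift, with a log2 fold change of 0.69 in the 10 libraries. With library size alone Slc30a9 was at -0.13, Slc39a13 at -0.0795, Selenow at -0.00596 and Ipo13 at -0.13. With log2(TPM + 1), Mtf1 was at -0.0241, Slc30a9 at -0.18, Slc39a13 at -0.103, Selenow at -0.0680, Ipo13 at -0.18 and C7 at -0.13; with log2(TPM + 0.1) the same genes were at -0.0298, -0.19, -0.106, -0.0680, -0.18 and -0.42. Upper-quartile scaling gave Slc30a9 -0.0107, and DESeq2 size factors gave Slc39a10 0.000132. With the term for Y-linked transcripts Slc39a1 was at 0.0838, Ipo13 at -0.12 and Evc2 at 0.26, and in the libraries with them alone Slc30a4 was at 0.00909, Slc39a1 at 0.0929, Ipo13 at -0.11 and Evc2 at 0.27. In the COPD libraries without them Slc30a2 was at -1.38, Slc39a10 at 0.22, Slc39a7 at 0.0245, Ndrg1 at 0.11 and C7 at -1.57. Leaving out 1 library turned Slc39a1 (-0.0501 to 0.0534), Slc39a10 (-0.32 to 0.11), Slc39a7 (-0.0847 to 0.0178), Slc30a9 (-0.0542 to 0.0636), Ndrg1 (-0.25 to 0.0369) and Ipo13 (-0.0247 to 0.12). For these changes the cause was not tested. The replicate block called 6 genes higher and 1 lower, 0 of them members, and put C7 at -0.11. The numbers did not pair the samples: same-numbered libraries correlated at -0.14 to 0.04 and no COPD library correlated best with its own number.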
